A study of Danio rerio with 10 samples.

Results

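Genes of vesicle traffic and of the small GTPases were followed across 10 arrays of adult male zebrafish exposed to 17β-estradiol (E2), alone or together with the estrogen receptor antagonist ICI (fulvestrant). The members were chosen by symbol, namely every probe whose only annotated symbol starts with rab, arf, arl, rac or snap and a digit, with sar1, vps, snx, tmed, stx, vamp, cdc42 or 1 further stem that is not given here, with cop and one of the letters a, b, e, g or z, or with ap1, ap2 or ap3 and a letter. This gave 99 probes for 88 genes, out of 16416 probes on the array, and 98 probes for 87 genes could be tested. The probe of snx10a, a sorting nexin, had too few values. Control fish (n = 4) were kept for 96 h in water with 0.01% ethanol, the solvent of both compounds, E2 fish (n = 3) in the same solvent with E2, and E2+ICI fish (n = 3) with E2 and 1 µM ICI. The treatment protocol gives E2 as 10 nM, whereas the sample titles give 10 mM, and the protocol's value is used here. Each array held RNA of 1 whole frozen fish against a common reference that, per the study's methods, was equal parts of pooled male and pooled female liver RNA, so that the replicates are separate fish and every value below is a log2 ratio of fish to reference unless it is called a log2 fold change. A level of 1 probe was never set against that of another probe, other than to give a value that vps9d1 and vps51 share.

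Membrane traffic moves cargo between compartments in vesicles. Coat and adaptor proteins such as COPI and AP-1 shape the vesicle and pick the cargo, Arf and Rab GTPases switch these steps on when they bind GTP, tethers catch the vesicle at its target, and SNARE proteins fuse the membranes. Retromer and other sorting nexin and Vps complexes return or degrade what reaches the endosome. GTPases such as Rac1 and Cdc42 use the same switch to control the actin cytoskeleton. In egg-laying vertebrates estrogen makes the liver, in males too, produce and secrete vitellogenin, the egg yolk precursor, which passes through the secretory route that many of these genes serve.

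The sign of the ratios was not stated outright. The dyes (fish in Cy3, reference in Cy5) do not set it alone, so it was read from estrogen biomarkers. The transcript of vtg3, a vitellogenin, lay between -6.96 and -5.64 in the control fish and between 0.77 and 2.01 in the E2 fish (log2 fold change 7.66 ± 0.35 SE, adjusted p = 3.17e-07), and esr1, the estrogen receptor alpha, was 2.09 ± 0.32 higher (adjusted p = 0.000509). The arrays differed in spread, with an SD over all probes of 0.796 to 1.07 for control fish, 0.461 to 0.514 with E2 and 0.373 to 0.561 with E2+ICI, and for the member probes of 0.546 to 0.841, 0.297 to 0.345 and 0.262 to 0.519. Control replicate 4 stood apart, with the widest spread and a member median of 0.27, and counts are given below with and without it. Fast muscle markers, which should exceed a liver reference in a whole fish, had array medians between -1.53 and -0.29 in the control group, between -0.39 and -0.26 with E2 and between -0.27 and -0.07 with E2+ICI, so that the labelled tissue was not borne out by them. Oocyte markers rose in E2 fish (7 of 7, array medians -5.52 to -4.27 for control fish, 0.22 to 0.41 with E2 and -1.08 to 0.01 with E2+ICI) and 5 of 8 liver markers fell (-0.12 to 0.74, -1.49 to -1.25 and -0.21 to -0.07). The part of these markers in the results below was not tested. By array median, control fish had liver markers near or above the reference and oocyte markers far below it. The make-up of the reference was not tested. In RNA of a whole fish, fewer cells of a type and less RNA per cell cannot be told apart.

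E2 changed 27 of the 98 member probes at an adjusted p under 0.05, with 15 higher and 12 lower, in 14 and 11 genes (snx12 had a probe in each direction). This is 27.6% of the members, below the 35.6% of all 16208 probes tested that passed in either direction, and the background was 19.2% for higher and 16.5% for lower. The median log2 fold change was -0.08 over the members and -0.07 over all probes, and 37 members had an unadjusted p under 0.05 against 45.1% of all probes. Without control replicate 4 the members called numbered 38 (20 higher, 18 lower), where 44.0% of all probes passed. The called members changed between 1.39-fold and 6.07-fold, and 29.6% of them by over 2-fold, compared with 42.2% of all called probes. All arrays of E2 fish lay on one side of all control arrays for 25 of the 27, the exceptions being rhoca and arl3l1. This was not counted over all called probes. A call itself favours such separation, so no trait of the members is read from it. Roles were set by symbol stem alone, so a role can hold genes outside its family, such as rab3gap2 among the Rab probes. By role, 4 of 14 coat and cargo probes were higher and 1 lower, 4 of 29 endosomal sorting probes were higher and 1 lower, 3 of 13 SNARE probes passed and were all higher, 1 of 22 Rab probes was higher and 4 lower, and 1 of 5 Arf probes was higher and 1 lower. The other called members are given by gene below.

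**Figure D1:**
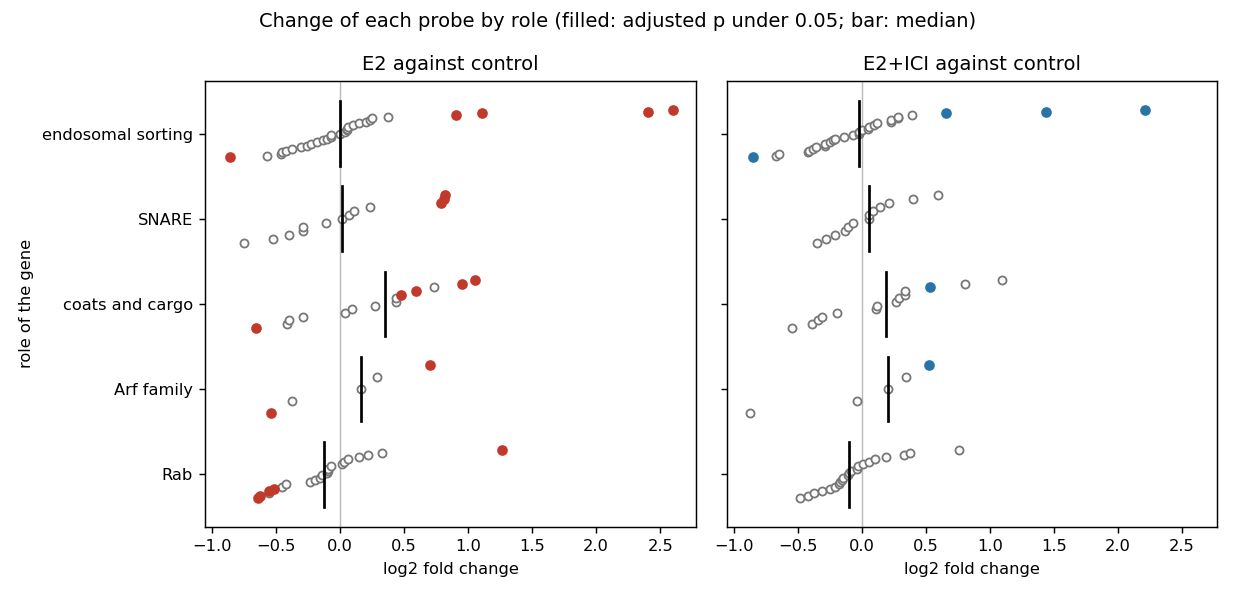
Log2 fold change (horizontal axis) of the tested probes of 5 roles (vertical axis) against the 4 control fish, for E2 fish on the left and E2+ICI fish on the right. Filled points passed at an adjusted p under 0.05 and black bars are medians, and the widest changes are the endosomal sorting probes at 2.60 and 2.41 on the left.

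Of the member probes, that of vps9d1 and 1 of the 4 probes of snx12, described below with the others, had the largest rises. The gene vps9d1 encodes a protein with a VPS9 domain, a domain that in other proteins loads Rab5 GTPases with GTP. It measured -2.71, -2.62, -3.03 and -3.15 in the control fish, -0.48, -0.30 and -0.06 in the E2 fish and -0.35, -1.44 and -0.22 in the E2+ICI fish. All treated fish lay above all control fish, and E2+ICI replicate 2 lay below the other treated fish. The log2 fold change was 2.60 ± 0.27 (SE) in E2 fish (adjusted p = 3.81e-05) and 2.21 ± 0.27 in E2+ICI fish (adjusted p = 0.000374). With quantile normalization the E2+ICI change was 0.99 and did not pass (adjusted p = 0.0705).

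The transcript of vps26a, a core subunit of retromer, which returns receptors from the endosome, measured -1.32, -1.05, -1.20 and -0.85 in control, -0.13, -0.09 and 0.22 in E2 and -0.51, -0.51 and -0.33 in E2+ICI fish. The 3 groups did not overlap, with the E2+ICI fish in the middle. The rise was 1.11 ± 0.16 in E2 fish (adjusted p = 0.00032) and 0.66 ± 0.16 in E2+ICI fish (adjusted p = 0.0201). Other retromer and related sorting nexin probes did not pass, and their log2 fold changes in E2 fish were 0.15 for vps26b, 0.06 for vps35, -0.46 for snx1a, -0.07 for snx5 and -0.07 for snx6. The E2+ICI call of vps26a did not hold without E2+ICI replicate 1 (adjusted p = 0.0623) or replicate 3 (adjusted p = 0.109), and it was 0.14 with quantile normalization (adjusted p = 0.723) and 0.24 with arrays scaled to equal spread (adjusted p = 0.489).

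The gene vps51, a subunit of the GARP tether, which receives vesicles that return from endosomes to the Golgi, lies outside the naming rule and was chosen after its values were seen. It measured -0.86, -1.10, -0.72 and -0.69 in control, 0.08, -0.22 and 0.34 in E2 and -0.80, -1.44 and -0.35 in E2+ICI fish. The E2 fish were all above the control fish, while the E2+ICI fish spread around them. On E2+ICI replicate 2, vps51 and vps9d1 held the same value, -1.4393. Whether it marks a limit of the spot measurement was not tested. The rise of 0.91 ± 0.24 in E2 fish (adjusted p = 0.0132) compares with -0.02 ± 0.24 in E2+ICI fish (adjusted p = 0.97), and without E2 replicate 3 it was 0.77 with an adjusted p of 0.067. With quantile normalization it was 0.71 (adjusted p = 0.0673). The other GARP probes, vps52 at -0.37 and vps53 at 0.06, did not pass, nor did the probes of the ESCRT subunits, which sort cargo for degradation, with -0.22 for vps28, 0.20 for vps36 and -0.26 for vps37a.

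**Figure D2:**
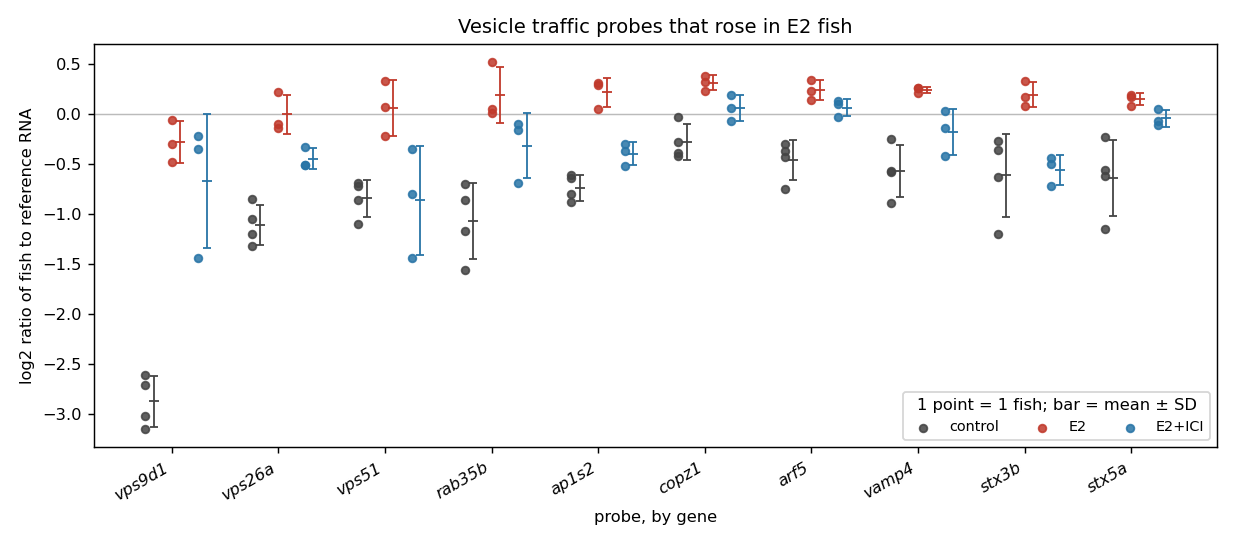
Log2 ratio of fish to reference RNA (vertical axis) in each fish for 10 single-probe genes that rose in E2 fish (horizontal axis), with points for fish and bars for mean ± SD of the 4 control, 3 E2 and 3 E2+ICI fish. In each gene the E2 fish lie above all control fish, and the control fish of vps9d1 lie between -3.15 and -2.62.

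Among the Rab GTPases 4 probes in 3 genes fell and 1 rose. The transcript that rose, rab35b, encodes a Rab of the plasma membrane and of recycling endosomes, and it measured -0.86, -0.70, -1.17 and -1.56 in control, 0.05, 0.02 and 0.52 in E2 and -0.15, -0.69 and -0.10 in E2+ICI fish. Both treated groups lay above the control fish, although E2+ICI replicate 2 only just did. The log2 fold change was 1.27 ± 0.24 in E2 fish (adjusted p = 0.00164), and 0.76 ± 0.24 in E2+ICI fish did not pass (adjusted p = 0.0605).

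The gene rab1ab, whose product carries vesicles from the endoplasmic reticulum to the Golgi, measured 0.44, 0.48, 0.72 and 0.93 in control, 0.00, 0.20 and -0.18 in E2 and 0.26, 0.29 and 0.11 in E2+ICI fish. All treated fish lay below all control fish. The E2 change was -0.64 ± 0.16 (adjusted p = 0.0103), and without E2 replicate 3 the adjusted p was 0.055. Its relative rab1bb was at -0.23 ± 0.22 (adjusted p = 0.449). Control replicate 4 of rab1bb lay far below the other control fish, and without that fish the change was -0.43 with an adjusted p of 0.046.

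Of the Rab5 genes, whose products mark the early endosome, rab5c fell on both of its probes and the others did not pass. Probe 5278674 of rab5c measured 0.41, 0.20, 0.32 and 0.39 in control, -0.20, -0.24 and -0.12 in E2 and 0.22, 0.33 and 0.36 in E2+ICI fish. The E2 fish lay below all others, and the E2+ICI fish overlapped the control fish. The change was -0.52 ± 0.13 in E2 (adjusted p = 0.0084) and -0.03 ± 0.13 in E2+ICI fish (adjusted p = 0.927). Probe 5272950 gave -0.55 ± 0.15 (adjusted p = 0.0158), with an adjusted p of 0.0599 without E2 replicate 2. In E2+ICI fish this probe was at -0.37 ± 0.15 and did not pass (adjusted p = 0.144). The E2 change was -0.42 ± 0.16 for rab5aa (adjusted p = 0.0625) and 0.02 ± 0.20 for rab5ab (adjusted p = 0.947). For rab5aa only 2 of the 3 E2 fish had a value, -0.12 and -0.15, both below the control fish at 0.24 to 0.32. The probe of rab11ba, a Rab of recycling endosomes, was at -0.10 ± 0.15 (adjusted p = 0.63). The remaining Rab probes, which did not pass, ran from -0.55 for rab25a to 0.33 for rab3gap2, a subunit of a Rab regulator.

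In the Arf family, arf5 rose and arl3l1 fell. The gene arf5, an Arf of the Golgi, measured -0.75, -0.37, -0.43 and -0.30 in control, 0.15, 0.23 and 0.34 in E2 and 0.10, -0.03 and 0.13 in E2+ICI fish, with all treated fish above all control fish. The rise was 0.70 ± 0.15 in E2 fish (adjusted p = 0.00346). On the values before Lowess normalization it was 0.27 and did not pass (adjusted p = 0.351). The gene arl3l1 is named as a relative of arl3, which in mammals releases lipid-bearing cargo in cilia. It measured 0.43, 0.55, -0.18 and 0.37 in control and -0.27, -0.17 and -0.30 in E2 fish, so that 1 control fish lay among the E2 fish. Its change of -0.54 ± 0.18 (adjusted p = 0.0326) was lost without control replicate 1 or 2 or any E2 fish, at adjusted p values of 0.0639 to 0.101. The probe of sar1ab, which builds the COPII coat, was at -0.37 ± 0.27 (adjusted p = 0.31).

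Coat and cargo genes had the highest median E2 log2 fold change of the 5 roles plotted, at 0.36. The gene ap1s2, the small subunit of the AP-1 adaptor that sorts cargo at the trans-Golgi, measured -0.88, -0.80, -0.61 and -0.64 in control, 0.31, 0.29 and 0.05 in E2 and -0.37, -0.52 and -0.30 in E2+ICI fish. The 3 groups did not overlap. The rise in E2 fish was 0.95 ± 0.14 (adjusted p = 0.000385). The other small AP-1 subunit on the array, ap1s1, was at 0.73 and did not pass (adjusted p = 0.274). Its control replicate 4 was at -2.45, whereas the other control fish lay between -0.16 and 0.02 and the E2 mean was 0.06.

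The gene copz1, a subunit of the COPI coat of the Golgi, measured -0.42, -0.03, -0.27 and -0.39 in control, 0.32, 0.39 and 0.23 in E2 and 0.07, -0.07 and 0.19 in E2+ICI fish. The E2 fish lay above all others. The rise was 0.59 ± 0.15 (adjusted p = 0.0084), and 0.21 with an adjusted p of 0.436 before Lowess. The other COPI probes did not pass, with 0.44 for cope, 0.27 for copg2 and 0.44 for copz2. The gene tmed8, placed in this role by its symbol, ran the other way, with 0.59, 0.77, 0.41 and 1.14 in control and 0.22, -0.22 and 0.22 in E2 fish, which did not overlap. Its change was -0.65 ± 0.19 (adjusted p = 0.0205), and without E2 replicate 2 it was -0.51 (adjusted p = 0.0952). The p24 probes of tmed10 and tmed4 were at -0.29 and -0.40 and did not pass.

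The 3 SNARE genes that rose, vamp4, stx3b and stx5a, act at the trans-Golgi, at the plasma membrane and between the endoplasmic reticulum and the Golgi. The gene vamp4 measured -0.57, -0.58, -0.88 and -0.25 in control, 0.26, 0.26 and 0.21 in E2 and -0.14, -0.42 and 0.03 in E2+ICI fish. The E2 fish were all above the control fish, and the E2+ICI fish overlapped them. The rise was 0.82 ± 0.17 in E2 fish (adjusted p = 0.0036).

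The gene stx3b measured -1.20, -0.63, -0.36 and -0.26 in control, 0.08, 0.34 and 0.17 in E2 and -0.50, -0.72 and -0.44 in E2+ICI fish. Only the E2 fish were above 0. The E2 change was 0.81 ± 0.21 (adjusted p = 0.0121), with an adjusted p of 0.0511 without E2 replicate 2. For stx5a the values were -0.23, -0.62, -0.56 and -1.15 in control, 0.20, 0.17 and 0.09 in E2 and -0.11, -0.06 and 0.05 in E2+ICI fish. Both treated groups lay above the control fish. The E2 change was 0.79 ± 0.19 (adjusted p = 0.00848), and 0.90 with an adjusted p of 0.0871 before Lowess. The neuronal SNARE partners snap25a at -0.28 ± 0.21 (adjusted p = 0.315) and snap25b at -0.52 ± 0.27 (adjusted p = 0.152) did not pass. In both, the control values spread widely, from -0.40 to 0.60 in snap25b. Of the 14 neuron marker probes, which include those of snap25a and snap25b, 1 rose and 1 fell in E2 fish, and their array medians were -0.36 to 0.48 for control fish, -0.25 to -0.10 with E2 and -0.25 to 0.26 with E2+ICI. The list thus restates the snap25 values in part, and its part in the SNARE values was not tested. The photoreceptor markers fell at 4 of 7 probes, with array medians of -0.06 to 0.39, -0.66 to -0.30 and -0.26 to 0.25, and their part was likewise not tested.

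The gene rac1a, which drives the actin networks of spreading membrane, rose in E2 fish. It measured -1.34, -0.99, -0.84 and -0.83 in control, 0.20, 0.42 and 0.49 in E2 and -0.13, -0.70 and -0.03 in E2+ICI fish, and the 3 groups did not overlap. The log2 fold change was 1.37 ± 0.20 in E2 fish (adjusted p = 0.000309). The probes of its relatives rac3a and rac3b were at -0.22 and -0.08 and did not pass.

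The RhoG genes rhogc and rhogb, whose products act upstream of Rac, moved in opposite directions. The gene rhogc measured -1.29, -0.70, -0.74 and -0.63 in control, 0.13, 0.33 and 0.30 in E2 and -0.15, -0.71 and -0.21 in E2+ICI fish, and its E2 change was 1.09 ± 0.20 (adjusted p = 0.00143). The gene rhogb measured 0.53, 0.40, 0.52 and 0.90 in control, -0.48, -0.48 and -0.40 in E2 and -0.05, 0.16 and -0.24 in E2+ICI fish, and its E2 change was -1.05 ± 0.16 (adjusted p = 0.000472). In both genes the E2 fish were separate from the control fish on every array, with the E2+ICI fish between them or touching the control range.

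Of the RhoA genes, whose products drive contractile actin fibres, rhoaa and rhoab fell and rhoac did not pass. The gene rhoaa measured 0.39, 0.55, 0.78 and 0.86 in control, -0.28, 0.03 and -0.08 in E2 and 0.13, 0.07 and -0.09 in E2+ICI fish, with all treated fish below all control fish. Its E2 change was -0.75 ± 0.16 (adjusted p = 0.00345). The gene rhoab measured -0.02, 0.87, 0.65 and 0.31 in control, -0.38, -0.53 and -0.53 in E2 and 0.10, 0.48 and 0.41 in E2+ICI fish. Its E2+ICI fish lay within the control range, whereas its E2 change was -0.94 ± 0.21 (adjusted p = 0.00464). The probe of rhoac was at -0.40 ± 0.15 (adjusted p = 0.0563), and at -0.50 with an adjusted p of 0.0209 without control replicate 3.

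The gene cdc42l, named as a relative of cdc42, the GTPase of cell polarity, measured 0.15, 0.36, 0.19 and 0.81 in control, -0.66, -0.74 and -0.39 in E2 and 0.02, 0.17 and 0.04 in E2+ICI fish. The E2 fish lay below all others, and the change was -0.97 ± 0.18 (adjusted p = 0.00157). The gene rhoca, a close relative of rhoA, is outside the naming rule and was chosen after its values were seen. It measured 0.24, 0.99, 0.06 and 0.31 in control and -0.52, 0.18 and -0.53 in E2 fish, which overlapped. Its change of -0.69 ± 0.25 (adjusted p = 0.0481) was lost without control replicate 1 or 2, E2 replicate 1 or 3 or any E2+ICI fish, at adjusted p values of 0.0578 to 0.174. The Cdc42 effectors cdc42ep2 at -0.35, cdc42ep4a at 0.35 and cdc42se1 at -0.06 did not pass. These paralogs are alike in sequence, and cross-hybridization between their probes was not tested.

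**Figure D3:**
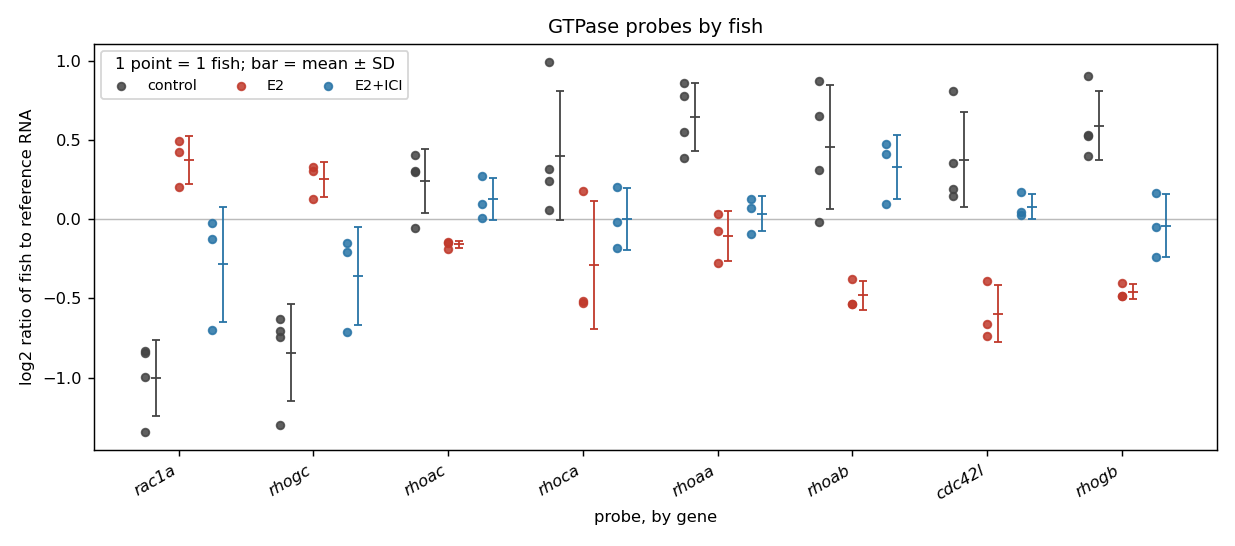
Log2 ratio of fish to reference RNA (vertical axis) in each fish for 8 GTPase probes (horizontal axis), ordered by their E2 log2 fold change, with bars for mean ± SD of the 4 control, 3 E2 and 3 E2+ICI fish. The E2 fish of rac1a and rhogc lie above all control fish, those of cdc42l, rhoaa, rhoab and rhogb lie below them, and those of rhoca overlap them.

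For 9 member genes the array held more than 1 probe. The sorting nexin snx12, a phosphoinositide-binding protein of endosomes, had 4 probes that did not give 1 answer. Probe 5273255 measured -1.75, -1.73, -1.99 and -1.73 in control, 0.70, 0.45 and 0.66 in E2 and -0.22, -0.79 and -0.09 in E2+ICI fish. The 3 groups did not overlap, and the rise was 2.41 ± 0.18 in E2 fish (adjusted p = 3.34e-06). Probe 5284937 of the same gene measured 0.84, 0.95, 0.62 and 0.67 in control, 0.01, -0.17 and -0.09 in E2 and 0.20, 0.65 and 0.22 in E2+ICI fish. Its E2 change was -0.86 ± 0.16 (adjusted p = 0.0016), so that the 2 called probes had opposite signs. Probes 5276006 at -0.57 ± 0.33 (adjusted p = 0.202) and 5278046 at -0.10 ± 0.37 (adjusted p = 0.853) did not pass. In both, control replicate 4 was the lowest control fish, at -1.19 and -1.22. Without that fish probe 5276006 gave -0.89 with an adjusted p of 0.00645. With the probes averaged, snx12 had an E2 change of 0.22 (adjusted p = 0.403). Which probe follows the transcript was not tested, and no direction is given for the gene.

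The probes of tmed9, a p24 cargo receptor of the early secretory route, both rose. Probe 5277357 measured -0.52, -0.63, -0.69 and -2.21 in control, 0.09, -0.38 and 0.40 in E2 and 0.04, 0.05 and 0.15 in E2+ICI fish, and its E2 change was 1.05 ± 0.36 (adjusted p = 0.0412). It was lost without E2 replicate 1 or 3 or any E2+ICI fish, at adjusted p values of 0.0566 to 0.157. Without control replicate 4, the lowest fish by far, the change was 0.65 (adjusted p = 0.0132). Probe 5283367 measured -0.50, -0.61, -0.58 and -0.84 in control, -0.05, -0.27 and -0.14 in E2 and -0.21, -0.07 and -0.02 in E2+ICI fish. All treated fish lay above all control fish on both probes. The second rise was 0.48 ± 0.14 (adjusted p = 0.0196), which did not pass without E2 replicate 1 (adjusted p = 0.0803) or replicate 3 (adjusted p = 0.0623), and before Lowess it was 0.03 (adjusted p = 0.925).

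The probes of rab14, a Rab between the trans-Golgi and endosomes, differed. Probe 5277198 measured 0.48, 0.36, 0.48 and 0.42 in control, -0.30, -0.04 and -0.21 in E2 and 0.21, 0.47 and 0.19 in E2+ICI fish, and its E2 change was -0.62 ± 0.14 (adjusted p = 0.00444). The E2 fish were clear of both other groups. Probe 5282304, with a value on 3 of the 4 control arrays, was at -0.09 ± 0.25 (adjusted p = 0.811), and the average of both was -0.43 (adjusted p = 0.0514). For rab5c both probes fell, as given above. The other 5 genes with several probes, rab40c, vamp8, snx4, snx7 and snx14, had no probe that passed in E2 fish.

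**Figure D4:**
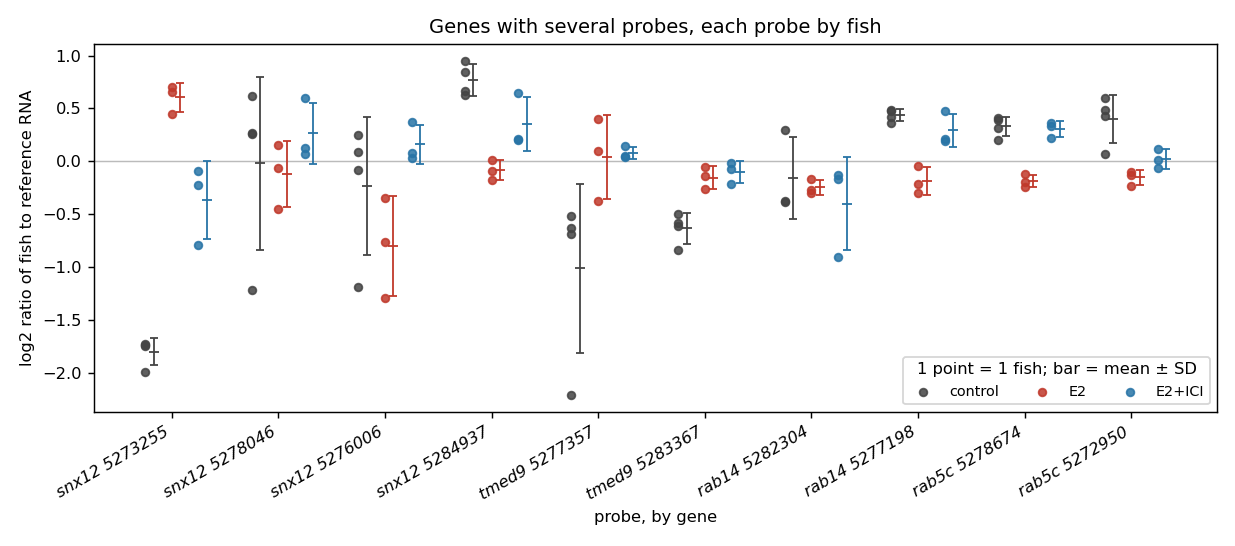
Log2 ratio of fish to reference RNA (vertical axis) in each fish for every probe of snx12, tmed9, rab14 and rab5c (horizontal axis, gene and probe number), with bars for mean ± SD of the 4 control, 3 E2 and 3 E2+ICI fish. The E2 fish of snx12 lie between 0.45 and 0.70 on probe 5273255, far above the control fish, but below them on probe 5284937, while both probes of rab5c and of tmed9 move in 1 direction.

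E2+ICI fish differed from control fish at 9 member probes (6 higher, 3 lower), or 9.18%, against 12.0% of all probes, 8.92% higher and 3.04% lower. The median log2 fold change was -0.03 over the members and 0.01 over all probes. This comparison shares its control fish with that of E2. Those higher were vps9d1, vps26a, rac1a, arf5, probe 5273255 of snx12 and probe 5283367 of tmed9, and those lower were rhogb, rhoaa and vps13a. Probe 5277357 of tmed9 was at 1.09 ± 0.36 in E2+ICI fish and did not pass (adjusted p = 0.0759). The gene vps13a, a lipid transfer protein at membrane contacts, lies outside the naming rule and was chosen after its values were seen. It measured 0.37, -0.08, 0.36 and 0.71 in control, 0.06, -0.23 and -0.07 in E2 and -0.13, -1.05 and -0.35 in E2+ICI fish. The E2+ICI fish lay below all control fish, with E2+ICI replicate 2 lowest, and the change was -0.85 ± 0.24 (adjusted p = 0.0394). It was lost without control replicate 1, 3 or 4, any E2 fish or E2+ICI replicate 2 or 3, at adjusted p values of 0.0513 to 0.12.

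Besides that of vps9d1, the smallest adjusted p in E2+ICI fish was that of snx12 probe 5273255, with 1.44 ± 0.18 (adjusted p = 0.000411), and both kept the call with each array left out. The other calls were closer to the threshold. Those raised were rac1a at 0.72 ± 0.20 (adjusted p = 0.0367), arf5 at 0.53 ± 0.15 (adjusted p = 0.0399) and tmed9 probe 5283367 at 0.53 ± 0.14 (adjusted p = 0.0294). Those lowered were rhoaa at -0.61 ± 0.16 (adjusted p = 0.0284) and rhogb at -0.63 ± 0.16 (adjusted p = 0.0256). Each of these 5 was lost with quantile normalization or equal spread (adjusted p = 0.0517 to 0.253), and without E2+ICI replicate 1 or replicate 3. Without replicate 1 the adjusted p was 0.144 for rac1a, 0.131 for arf5, 0.0646 for tmed9, 0.0717 for rhoaa and 0.0878 for rhogb. Without replicate 3 it was 0.182, 0.16, 0.138, 0.141 and 0.141 in the same order. Other single arrays also ended calls, namely E2+ICI replicate 2 for arf5, tmed9 and rhoaa (0.0524, 0.064 and 0.0531), control replicate 1 for rac1a and arf5 (0.0733 and 0.0738), control replicate 2 for rac1a, arf5 and tmed9 (0.0663, 0.0599 and 0.0576), control replicate 3 for arf5 and rhoaa (0.0689 and 0.0677), and any E2 fish for rac1a and arf5 (0.0522 to 0.0619). As a whole, the members called in E2+ICI fish numbered 3 without E2+ICI replicate 1, 2 without replicate 3 and 10 without control replicate 4, where 6.71%, 5.53% and 15.1% of all probes passed.

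Between E2+ICI and E2 fish 2 member probes differed, both lower with ICI, or 2.04% against 5.42% of all probes, of which 2.88% were higher and 2.54% lower. An unadjusted p under 0.05 was reached by 18 members and by 24.2% of all probes. The probes were 5273255 of snx12, with -0.97 ± 0.19 (adjusted p = 0.0196), and that of ap1s2, with -0.61 ± 0.15 (adjusted p = 0.0412). For both, the E2+ICI fish stood between the control and E2 fish on every array. The call of snx12 was lost without any E2 fish or E2+ICI replicate 1 or 2 (adjusted p = 0.0512 to 0.0882), and that of ap1s2 without control replicate 2 or any treated fish (adjusted p = 0.0603 to 0.146). The members called numbered 0 without any 1 E2 fish or E2+ICI replicate 1 or 2, where 0.882% to 1.70% of all probes passed. They numbered 1 without control replicate 2 and 4 without control replicate 1, where 4.00% and 5.73% of all probes passed. Leaving out control replicate 4 gave 11 members (6 higher, 5 lower), where 16.6% of all probes passed, 8.87% higher and 7.76% lower. With only the 2 groups compared, 9 members were higher and 6 lower, against 11.1% and 9.39% of all probes. Members higher with ICI were thus called in some fits.

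For 24 of the 27 members that E2 changed, or 88.9%, the mean with ICI fell between those of the other groups, the exceptions being both probes of tmed9 and vps51. Over all probes that E2 changed this share was 90.1%. The share of the E2 change that was absent in E2+ICI fish, computed as E2 minus E2+ICI over E2 minus control from the group means, had a median of 0.403 in the raised members (range -0.111 to 1.02) and 0.468 in the lowered ones (0.162 to 0.951), beside 0.411 and 0.554 over all raised and lowered probes. The E2 and control fish enter both the choice of these probes and the share, so it is a description with no test. The ends were tmed9 probes 5283367 at -0.111 and 5277357 at -0.0394, and vps51 at 1.02. Between these, the low end held vps9d1 at 0.151, tmed8 at 0.162 and rhoaa at 0.189. The high end held rab5c probe 5278674 at 0.951, arl3l1 at 0.936, stx3b at 0.929 and rhoab at 0.866. From vps9d1 to rhoab, the single changes of E2+ICI against E2 did not pass. Their adjusted p was 0.447, 0.797, 0.657, 0.0585, 0.129, 0.0759 and 0.0568 in that order. The other called probe of rab5c, 5272950, had a share of 0.32, so the probes of this gene differed in it. The shares of vps51 and vps9d1 include the value that both hold on E2+ICI replicate 2. So does the place of vps51 among the exceptions, and neither was recomputed without it.

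The side of the reference on which a member stood in control fish went with its direction. All 15 raised probes had a control mean below 0 and all 12 lowered probes a control mean above 0. Over all probes of the array these shares were 99.0% and 88.3%, so the members followed the array as a whole. Of the tested members, 43 had a control mean below 0 and 55 above. The control arrays also had the widest spread around the reference, as given above, and its part in this was not tested. The control fish enter both the control mean and the E2 change, so the pattern is a description with no test.

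**Figure D5:**
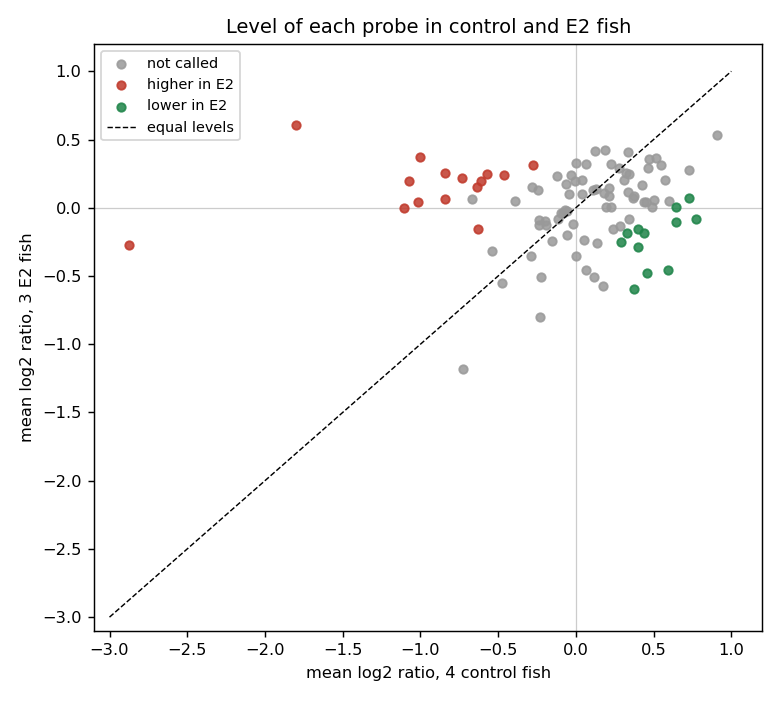
Mean log2 ratio to reference RNA in the 3 E2 fish (vertical axis) against the 4 control fish (horizontal axis) for the 98 tested member probes, with called probes in colour and a dashed line for equal levels. The 15 raised probes all lie left of 0, among them vps9d1 at -2.88 and snx12 probe 5273255 at -1.80, and the 12 lowered probes all lie right of 0.

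Other genes of the same pathways, given from a list of coat, tether, SNARE partner and GTPase regulator symbols, were counted beside the members. Of 72 tested probes, 15 rose and 12 fell in E2 fish, with a median of 0.03, where the background over all probes was 19.2% and 16.5%. The RhoA-inactivating gene arhgap11a rose on both probes, by 2.15 ± 0.23 (adjusted p = 3.8e-05) and 1.19 ± 0.16 (adjusted p = 0.000182), and the SNARE use1, of traffic back to the endoplasmic reticulum, rose by 1.22 ± 0.20 (adjusted p = 0.000775). Those with the smallest p among the lowered were the clathrin light chain cltb with -0.99 ± 0.19 (adjusted p = 0.00174), the GTPase activator arhgef5 with -0.94 ± 0.19 (adjusted p = 0.00275) and gdi2, which extracts Rab GTPases from membranes, with -0.75 ± 0.18 (adjusted p = 0.0062). Between E2+ICI and control fish 2 of the 72 passed, both higher, against 12.0% of all probes, and between E2+ICI and E2 fish 1 was higher and 2 were lower, against 5.42%.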

How the data were processed

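Expression was measured on 10 spotted 2-colour oligonucleotide arrays, 1 per fish (4 control, 3 E2 and 3 E2+ICI), grouped by the sample labels. The deposited values are log2 ratios of fish to reference RNA, which the authors made from GenePix spot data (local background subtracted, then Lowess within the array) for arrays that they had picked by scatter plot. The same ratios as they stood before Lowess were deposited too. Software versions for GenePix and Lowess are not given in the sources used here. No spot intensities were used, so the depth per spot is unknown, and the number of arrays limits the precision. Per array 196 to 912 values were missing, no 2 arrays were identical, and 7 member probes lacked a value on some array.

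A single limma model (version 3.58.1, R 4.3.3) covered all 10 arrays and the 16208 probes that missed no more than 6 values and had 2 or more per group. Contrasts were two-sided, p-values were adjusted by Benjamini-Hochberg across these probes, and an adjusted p under 0.05 was a call. The ± of a fold change is its standard error. Of the 16416 probes, 6088 have 1 symbol in the platform annotation, 75 several and 10253 none, and all 99 member probes matched the RefSeq gene table. SAM, the methods' tool, was rewritten (Python 3.11.15, numpy 2.4.6, pandas 2.3.3) and used 35 permutations against control, and figures were made by matplotlib 3.10.9. Both tests were tried on simulated data with known changes. Probe and promoter sequences were not used here. The counts of 1 role, and the stem that defines it, are not reported here.

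Named were, in each role, the 3 called probes with the smallest p in each direction for E2, the 2 of smallest p in each other comparison, the probe of largest change, all probes of genes whose probes disagreed, and a set of well-known genes (rab1, rab5, rab7, rab11, arf1, arf6, sar1, rhoa, rac1, cdc42, ap2m1, vamp2 and snap25), as far as they were on the array. The members, roles, lists and tests were chosen with earlier results of these data known. Same-numbered fish did not deviate together (correlations of -0.232 to 0.173), so the numbers were not taken as pairs. Alternatives were quantile normalization, arrays scaled to equal spread, medians set to 0, values before Lowess, other filters on missing values, only the groups compared, a replicate block, array weights, repeated values set to missing, probes of a gene averaged, SAM, and each array left out.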

Additional observations from a re-analysis of the deposited data

Results flagged for a closer look

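In the 38 probes tested for a control fish far from the other 3, 4 had one, by Dixon's test at its 95% level, which chance passes in about 1 in 20 groups. The probe of rab1bb gave -0.04 in control replicate 4, against 0.69 to 0.78 in the others. Probe 5277357 of tmed9 gave -2.21 in control replicate 4, against -0.69 to -0.52. The probe of rhogc gave -1.29 in control replicate 1, against -0.74 to -0.63. Probe 5273255 of snx12 gave -1.99 in control replicate 3, against -1.75 to -1.73.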

How the results depend on the processing

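Of the 27 member calls for E2 against control, 12 were kept in each of 22 alternatives of the limma fit and by SAM (vps9d1, vps26a, rab35b, ap1s2, vamp4, rac1a, rhogc, rhogb, rhoaa, rhoab, cdc42l and rab5c probe 5278674), and 15 were lost in at least 1 of the 22, of which 8 were lost before Lowess. The share kept was not counted over all called probes, so no trait of the members is read from it. The count was 43 with array weights, where 51.5% of all probes passed. It was 21 to 38 with an array left out, where 26.0% to 44.0% of all probes passed. SAM called 22, of which 21 were shared. The shares of all probes that SAM called are not given here. For E2+ICI against control the 9 calls became 2 with quantile normalization or SAM, 3 with equal spread, before Lowess or with only the 2 groups, 4 before Lowess with medians set to 0, 20 with array weights and 2 to 10 with an array left out. Over all probes 12.0% passed in the first place, 6.34% with quantile normalization, 6.50% with equal spread and 6.59% before Lowess. This share was 8.99% before Lowess with medians set to 0 and 7.44% with only the 2 groups. With array weights it was 25.3%, and with an array left out 5.53% to 15.1%. For E2+ICI against E2 the 2 calls became 20 with quantile normalization or equal spread, 0 before Lowess, 1 before Lowess with medians set to 0, 15 with only the 2 groups, 8 with a replicate block, 24 with array weights, 1 with probes of a gene averaged and 0 to 11 with an array left out. Over all probes 5.42% passed in the first place, 24.3% and 23.7% with quantile normalization and equal spread, and 0.999% before Lowess. The share was 2.35% before Lowess with medians set to 0, 20.4% with only the 2 groups and 12.9% with the block. It was 27.8% with array weights, 5.56% with probes of a gene averaged and 0.882% to 16.6% with an array left out. Most of the larger shifts of the counts thus went with those of the whole array, while some small ones did not. With probes of a gene averaged, the members called for E2+ICI against E2 fell while the share over all probes rose. The replicate block gave 34 calls for E2 and 7 for E2+ICI against control, where 41.0% and 12.7% of all probes passed. In the second of these the member count fell while the share over all probes rose. Averaging the 4 snx12 probes reversed probe 5284937 for E2 against control to 0.22 and probe 5273255 for E2+ICI against E2 to 0.21, by construction, since the probes differ in sign. The cause of the other shifts was not tested. Setting medians to 0 before Lowess was chosen after seeing the data. Before Lowess the median of all probes for E2 against control was -0.31, against -0.07. Depth per spot is unknown, and 3 or 4 fish per group limit all comparisons.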
